A study of Mus musculus with 10 samples.

Results

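The genes described here are 45 synaptic vesicle and release machinery genes, chosen by name and read from the table of gene expression of the mouse ventral hippocampus (vHpc), in which 24421 gene symbols are listed. All 45 were in the table and all had a mean of at least 0.5 CPM, the limit for testing, which 15081 of the 24421 genes reached. CPM gives a gene's reads per 1000000 reads assigned to genes.

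Ventral hippocampi came from adult ovariectomized (OVX) female mice of the C57BL/6 strain. WT mice were wild type at Bdnf, and Het-Met mice (genotype BDNF Met/+) were heterozygous for a knock-in Met allele of the brain-derived neurotrophic factor gene, which gene counts do not show. After 2 weeks of recovery from surgery the mice drank 300 nM β-estradiol (E2), about 0.7 µg per day, or vehicle for 6 weeks, with 0.1% ethanol in both solutions. OVX WT mice gave 2 libraries under vehicle (replicates 1 and 3) and 2 under E2, OVX Het-Met mice gave 3 under each treatment, and every library held the pooled RNA of 2 animals. The study's methods describe 1 replicate more in each OVX WT group, and no such library was analysed here. All mice were ovariectomized, so no group with ovaries stands beside them, and with 2 libraries in each OVX WT group the spread of those groups rests mostly on the other libraries of the fit. Between 19820184 and 23267410 reads were counted on genes per library. Replicates differed by more than counting noise, the chi-square per degree of freedom being 3.40 to 14.1.

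Transmitter is stored in synaptic vesicles, which dock at the active zone, fuse with the presynaptic membrane when calcium enters, and are taken back by endocytosis. The vesicle carries its own proteins, such as synaptophysin, synaptotagmin, the SV2 proteins, the synapsins and Rab3, and a transporter that fills it. Fusion is driven by the SNARE proteins, complexin holds and helps that step, NSF and its SNAP partners take the SNAREs apart again, and the active zone is built of very large scaffold proteins such as Bassoon, Piccolo and RIM. In the hippocampus most release is of glutamate loaded by VGLUT1, and a smaller part is of GABA.

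The 45 genes were sorted into 15 vesicle genes (Syn1, Syn2, Syp, Syt1, Vamp1, Vamp2, Rab3a, Rab3b, Rab3c, Sv2a, Sv2b, Sv2c, Syngr1, Syngr3, Dnajc5), 4 transmitter transporters (Slc17a6, Slc17a7, Slc17a8, Slc32a1), 10 fusion genes (Snap25, Stx1a, Cplx1, Cplx2, Cplx3, Nsf, Napa, Napb, Doc2a, Doc2b), 11 active-zone genes (Unc13a, Unc13c, Rims1, Rims2, Rims3, Bsn, Pclo, Erc1, Erc2, Ppfia2, Ppfia3) and 5 endocytosis genes (Dnm1, Amph, Synj1, Synj2, Sh3gl2). The classes differ in transcript length, taken as the longest coding transcript of the gene. Its median was 3854 bases for the vesicle genes, with a range from 1556 to 9101, and 8760 bases for the active-zone genes, with a range from 4647 to 20084. The fusion genes had transcripts between 2116 and 4928 bases.

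The 45 genes together held between 2.54% and 2.65% of the reads of a library. Summed, they made 26339.5 ± 161 CPM under vehicle and 26059 ± 274 CPM under E2 in OVX WT mice (SD, n = 2 each), and 25696 ± 505 CPM under vehicle and 26199 ± 330 CPM under E2 in the Het-Met groups (SD, n = 3 each). On the scale of CPM per kb of transcript, the highest level was that of Snap25, a SNARE protein of the presynaptic membrane, at 1302, and the lowest that of Slc17a8, the glutamate transporter VGLUT3, at 1.02. Mean levels were above 100 CPM for 34 of the 45 genes. The highest library was less than 1.2 times the lowest for 16 genes, and more than 2 times the lowest for 4, Sv2c, Cplx3, Rims3 and Slc17a6, all genes of low level.

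**Figure D1:**
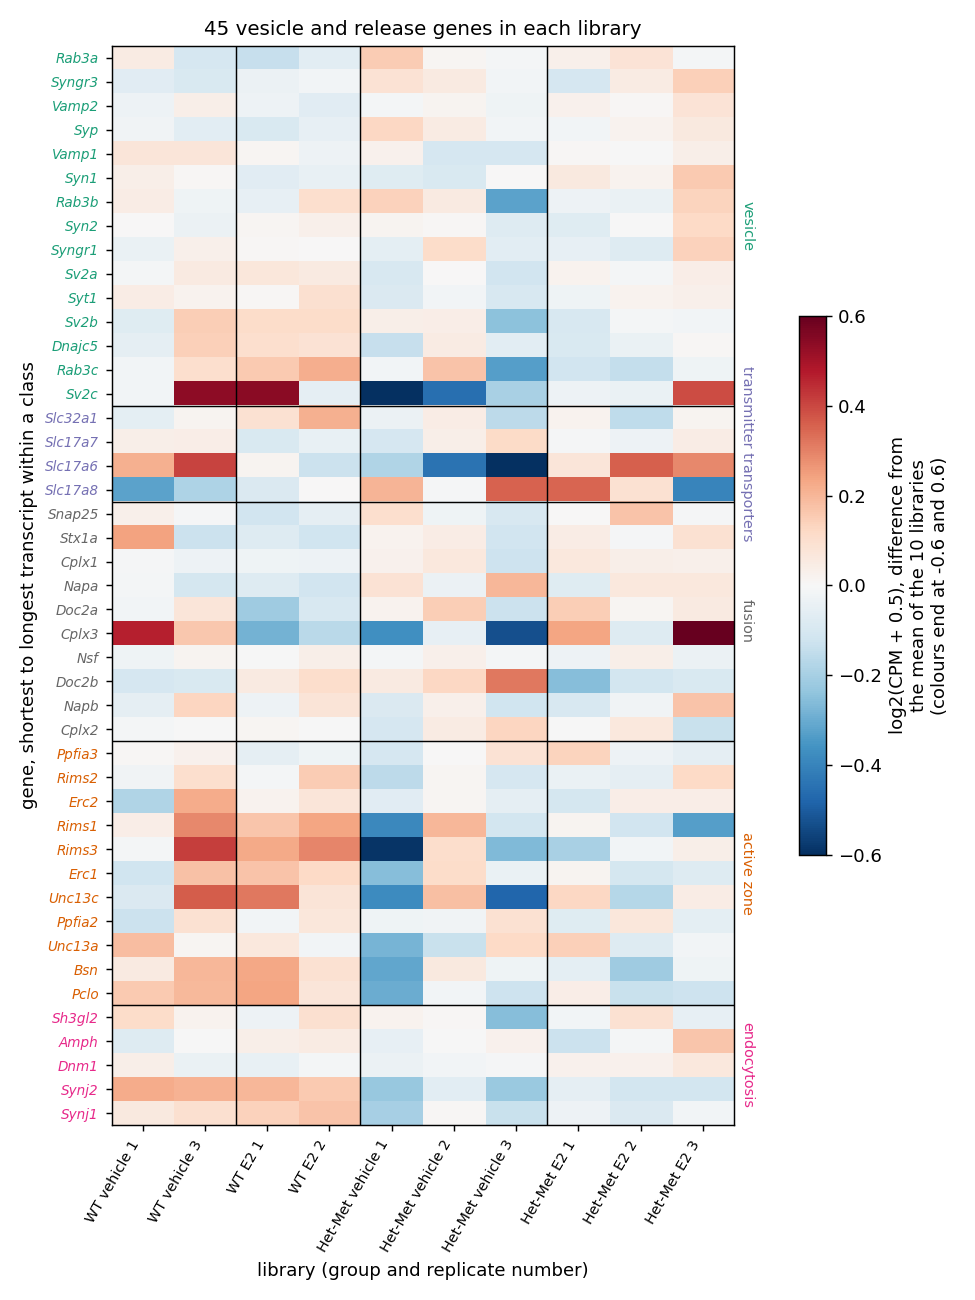
Each row is a gene, each column a library, and colour gives log2(CPM + 0.5) relative to the mean of the 10 libraries (red higher, blue lower), with genes sorted by class and, within a class, from short to long transcripts. Most rows are pale, the lower rows of the active-zone class are bluer in the Het-Met columns than in the WT columns, and the strongest colours are in Sv2c, Slc17a6, Slc17a8, Cplx3 and Rims3.

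Differences between the libraries in transcript length and in neighbouring tissue bear on what follows. Over all 14979 genes tested that had a length, the slope of a gene's level, relative to its mean over the libraries, on the log of its transcript length was 0.05 and 0.19 under vehicle and 0.17 and 0.16 under E2 in OVX WT mice (log2 per 10-fold length). It was -0.33, -0.02 and -0.05 under vehicle and 0.01, -0.09 and -0.09 under E2 in OVX Het-Met mice. Long transcripts were thus read at a lower level in the Het-Met than in the WT libraries across the whole table, and vehicle-treated OVX Het-Met replicate 1 stood apart with the steepest slope. As to tissue from beside the hippocampus, the 8 choroid plexus markers, of which Ttr was the most abundant, summed to 145 and 1059 CPM in vehicle-treated and to 2450 and 1866 CPM in E2-treated OVX WT libraries. Their sum was 3224, 1442 and 1900 CPM in vehicle-treated and 1518, 425 and 254 CPM in E2-treated OVX Het-Met libraries, and none of the 8 was at 0 in all libraries. The 6 neuron markers outside the 45 genes, with Map2 the most abundant, summed to 3355 to 3572 CPM over the libraries.

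The question asked of the 45 genes was whether their levels differed between genotypes, after E2 add-back within a genotype, or in the E2 effect between genotypes. In limma's fit over the 4 groups, a call needed a Benjamini-Hochberg adjusted p under 0.05 over all genes tested and a fold change above 1.3, and 0 of the 45 genes was called in any of the 6 comparisons. On the recovered reads edgeR called Slc17a6 for the interaction, and DESeq2 called Slc17a6 for E2 in OVX Het-Met mice, Slc17a6 and Synj2 for genotype under vehicle, and Slc17a6 and Cplx3 for the interaction. Of all genes edgeR called 0.0796% for the interaction, and DESeq2 called 0.0398% for E2 in OVX Het-Met mice, 0.225% for genotype under vehicle and 0.245% for the interaction. In limma few genes of any kind were called, 0.0133% of all tested for E2 against vehicle in OVX WT mice, 0% in OVX Het-Met mice, 0.00663% for genotype under vehicle, 0.0265% for genotype under E2, 0.0265% for genotype over both treatments and 0.0729% for the interaction. At an unadjusted p under 0.05, the counts were 2, 5, 10, 11, 12 and 4 of the 45 genes in the same order. The share of all genes tested that met that limit was 4.04%, 5.45%, 10.7%, 11.7%, 16.6% and 5.42%. For genotype under vehicle 2 of the 45 genes were higher and 8 lower in Het-Met mice, beside 5.85% and 4.83% of all genes. Under E2, 3 were higher and 8 lower, beside 6.29% and 5.36%. Libraries of the groups did not overlap for 4 higher and 9 lower genes under vehicle (14.8% and 9.89% of all genes) and for 13 higher and 13 lower genes under E2 (21.1% and 14.7%). Of the 45 genes, 18 (40%) met the unadjusted limit in at least 1 comparison, beside 28.3% of all genes, and the other 27 did so in none. Their log2 fold changes lay between -0.14 and 0.11 for genotype over both treatments, between -0.16 and 0.12 for E2 in OVX WT mice and between -0.05 and 0.12 for E2 in OVX Het-Met mice. Since the RNA is from whole tissue, fewer cells of a type and less RNA per cell cannot be told apart.

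Genotype was the comparison in which most of the 45 genes met the unadjusted limit. Averaged over both treatments, 11 genes were lower and 1 was higher in Het-Met than in WT mice, beside 7.27% of all genes lower and 9.33% higher. Of these 12, 5 were active-zone genes (Pclo, Bsn, Rims1, Rims3, Unc13c), 3 vesicle genes (Sv2c, Rab3c, Dnajc5), 2 endocytosis genes (Synj2, Synj1), 1 a transporter (Slc17a6) and 1, the higher one, a fusion gene (Napa). Slc17a6 was lower on average only, since it was lower in Het-Met mice under vehicle and higher under E2, while the other 11 had the same sign under both treatments. The median log2 fold change was -0.05 over the 45 genes and 0.02 over all genes, and the former came nearer to 0 (-0.02 to -0.03) without E2-treated OVX WT replicate 2, vehicle-treated OVX Het-Met replicate 3 or E2-treated OVX Het-Met replicate 1 or 2. Libraries of the genotypes did not overlap for 1 gene that was higher (Syp) and 3 that were lower in Het-Met mice (Pclo, Synj1, Synj2), where 2.63% and 1.72% of all genes did the same. With single libraries left out, the count of 12 ranged from 5, without vehicle-treated OVX WT replicate 3, to 17, without vehicle-treated OVX WT replicate 1, and it was 7 without E2-treated OVX WT replicate 1. The share of all genes in these fits was 11.4%, 19.8% and 11.3%.

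Among the active-zone genes, 10 of 11 had a log2 fold change below 0 for genotype over both treatments, with a median of -0.14. Pclo (chr5:14514918-14863459, plus strand, GRCm38, as for all positions here) encodes Piccolo, a scaffold of the presynaptic active zone, and had the longest transcript of the 45 genes at 20084 bases. Its level was 479 and 492 CPM in vehicle-treated and 507 and 452 CPM in E2-treated OVX WT libraries. In OVX Het-Met libraries it was 349, 425 and 395 CPM under vehicle and 442, 392 and 394 CPM under E2. Every Het-Met library was below every WT library, the nearest pair being 442 and 452 CPM. The log2 fold change was -0.27 ± 0.06 (SE), with an adjusted p of 0.12 in limma, 0.0366 in limma without vehicle-treated OVX Het-Met replicate 2 and 0.00463 in DESeq2, the fold staying short of the 1.3 limit in each. Of all genes, 0.0332%, 1.01% and 1.96% had an adjusted p under 0.05 in those 3 fits.

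Bsn (chr9:108096022-108190384, minus strand) encodes Bassoon, the other large scaffold, from a transcript of 15938 bases. It was at 684 and 755 CPM in vehicle-treated and 772 and 701 CPM in E2-treated OVX WT libraries, against 529, 685 and 646 CPM in vehicle-treated and 632, 568 and 646 CPM in E2-treated OVX Het-Met libraries. The genotypes touched at a single pair under vehicle, 684 and 685 CPM, and were apart under E2. The log2 fold change over both treatments was -0.24 ± 0.07 (SE; adjusted p of 0.144 in limma and 0.0337 in DESeq2, with the fold short of 1.3 in both). Without vehicle-treated OVX Het-Met replicate 1 it was -0.18 (adjusted p = 0.232).

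Rims1 and Rims3 encode RIM proteins of the active zone. Rims1 was at 136 and 162 CPM in vehicle-treated and 149 and 156 CPM in E2-treated OVX WT libraries, and at 101, 152 and 122 CPM and at 134, 122 and 105 CPM in the corresponding OVX Het-Met libraries. Rims3 was at 9.72 and 13.2 CPM and at 11.6 and 12.1 CPM in OVX WT libraries, and at 6.36, 10.6 and 8.07 CPM under vehicle and 8.51, 9.68 and 10.1 CPM under E2 in OVX Het-Met libraries. For both genes the genotypes overlapped under vehicle, where Het-Met replicate 2 was high, and did not overlap under E2. Over both treatments their log2 fold changes were -0.30 ± 0.10 and -0.38 ± 0.13 (SE), with limma adjusted p of 0.157 and 0.168. Without vehicle-treated OVX Het-Met replicate 2 Rims1 was at -0.38 with an adjusted p of 0.0452.

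Unc13c encodes a Munc13 priming factor. It was at 34.5 and 47.3 CPM under vehicle and 45.8 and 38.7 CPM under E2 in OVX WT libraries, and at 28.1, 41.6 and 26.2 CPM and at 40.0, 32.5 and 37.8 CPM in the OVX Het-Met libraries. The groups overlapped, and the log2 fold change was -0.28 ± 0.12 (SE; limma adjusted p = 0.264), or -0.17 without vehicle-treated OVX WT replicate 3. The other active-zone genes were nearer to 0, from -0.14 for Erc1 to 0.02 for Ppfia3, and the liprin gene Ppfia2, with a transcript of 8885 bases, was at -0.01.

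Synj2, an endocytosis gene on chr17:5941280-6044290 (plus strand), encodes synaptojanin 2, an inositol lipid phosphatase. It had the smallest p of the 45 genes for genotype over both treatments. Its level was 105, 104, 103 and 100.1 CPM in the 4 OVX WT libraries, vehicle first. In OVX Het-Met mice it was 76.7, 85.8 and 76.9 CPM under vehicle and 86.5, 83.2 and 83.1 CPM under E2. The 4 WT libraries lay close together and all 6 Het-Met libraries lay below them, so that the groups did not overlap under either treatment. The log2 fold change was -0.33 ± 0.05 (SE) over both treatments, a ratio of 0.797, and its limma adjusted p of 0.0282 was under 0.05 while the fold was short of the 1.3 limit. Of all genes tested, 0.0332% (5 genes) had an adjusted p under 0.05 in this comparison. The log2 fold change was -0.39 ± 0.07 under vehicle and -0.27 ± 0.07 under E2, with adjusted p of 0.155 and 0.32. With single libraries left out it stayed between -0.35 and -0.31, and the adjusted p ranged from 0.0105 to 0.307 and was under 0.05 in 1 of the 10 fits.

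Synj1 encodes synaptojanin 1, the main form at nerve terminals, which strips the clathrin coat from new vesicles. It was at 609, 626, 644 and 659.8 CPM in the 4 OVX WT libraries, and at 509, 587 and 534 CPM and at 573, 551 and 578 CPM in the OVX Het-Met libraries. Here, too, no Het-Met library reached the lowest WT library. Its log2 fold change was -0.19 ± 0.05 (SE; limma adjusted p = 0.126). The adjusted p was 0.0476 without vehicle-treated OVX Het-Met replicate 2 and 0.0118 in DESeq2, again with the fold short of 1.3. Dnm1, the dynamin that pinches vesicles off and the endocytosis gene of highest level, was at 1784 and 1696 CPM and at 1693 and 1726 CPM in OVX WT libraries. It was at 1703, 1721 and 1737 CPM and at 1776, 1776 and 1824 CPM in OVX Het-Met libraries, a log2 fold change of 0.03 ± 0.05 (SE).

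**Figure D2:**
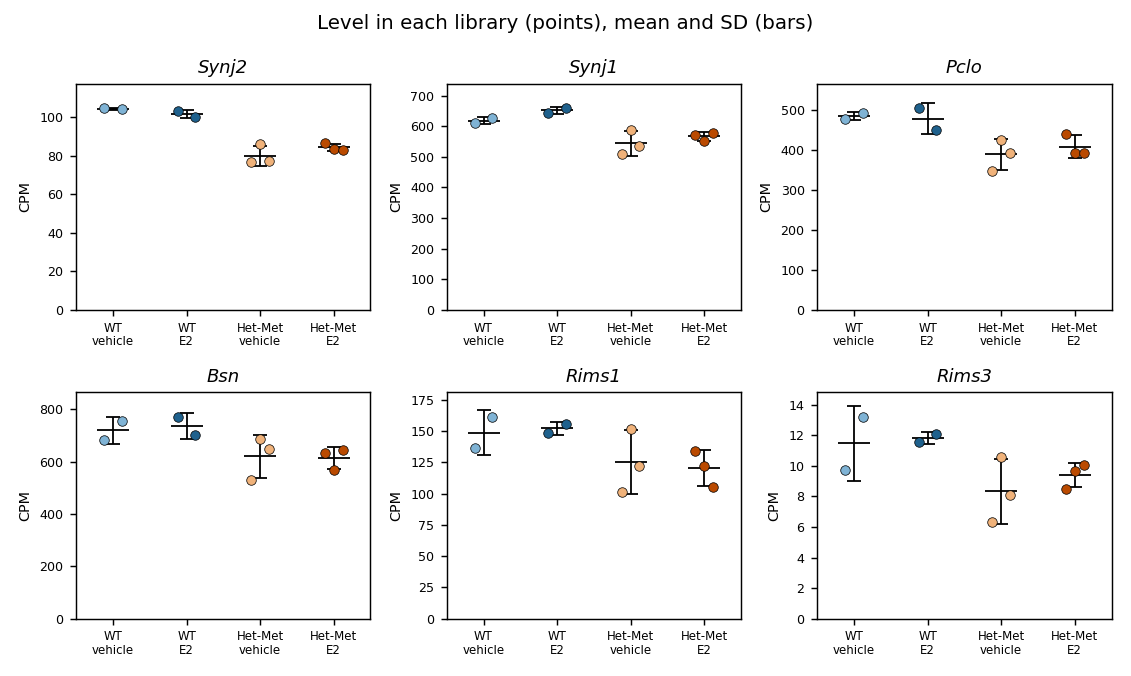
Each panel plots the CPM of 1 gene on an axis from 0, with a point for each library and bars for the group mean and SD (n = 2 for WT groups, n = 3 for Het-Met groups). For Synj2, Synj1 and Pclo all 6 Het-Met points lie below the 4 WT points, and for Bsn, Rims1 and Rims3 the points meet under vehicle.

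Most vesicle genes were near level between genotypes. Syt1, the calcium sensor of release and the vesicle gene of highest CPM, was at 1988 and 1953 CPM and at 1939 and 2062 CPM in OVX WT libraries, and at 1815, 1904 and 1802 CPM and at 1892, 1957 and 1966 CPM in OVX Het-Met libraries. Its log2 fold change was -0.07 ± 0.05 (SE; limma adjusted p = 0.487). Syp, synaptophysin, is the gene whose Het-Met libraries all lay above the WT libraries, 1631 CPM being the lowest Het-Met and 1626 CPM the highest WT level, with a log2 fold change of 0.09 ± 0.05 (SE; limma adjusted p = 0.371). Over the 15 vesicle genes the median was -0.03, with 5 above and 10 below 0.

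The 3 vesicle genes that met the unadjusted limit have the longest transcripts of their class, 9101 bases for Sv2c, 8444 for Rab3c and 6578 for Dnajc5. Sv2c, the least abundant of the SV2 glycoproteins here, was at 10.5 and 15.6 CPM and at 15.7 and 10.2 CPM in OVX WT libraries. It was at 6.40, 7.62 and 9.18 CPM in vehicle-treated and at 10.4, 10.3 and 14.0 CPM in E2-treated OVX Het-Met libraries. The vehicle-treated Het-Met libraries were the 3 lowest of the 10, and the E2-treated ones overlapped both WT groups. Its log2 fold change was -0.42 ± 0.15 (SE; limma adjusted p = 0.186) over both treatments, or -0.27 without E2-treated OVX WT replicate 1.

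Rab3c, a small GTPase of vesicles, was at 609 and 663 CPM and at 688 and 718 CPM in OVX WT libraries, and at 609, 695 and 490.2 CPM and at 570.4, 559 and 607 CPM in OVX Het-Met libraries. Dnajc5, the vesicle chaperone CSPα, was at 301 and 345 CPM and at 336 and 332 CPM, against 284, 324 and 299.6 CPM and 293, 305 and 314 CPM. For both genes the genotypes overlapped under vehicle and were apart under E2, and the log2 fold changes were -0.19 ± 0.08 and -0.11 ± 0.05 (SE; limma adjusted p of 0.233 and 0.299). Rab3c was at -0.12 without vehicle-treated OVX Het-Met replicate 3 and Dnajc5 at -0.0651 without vehicle-treated OVX WT replicate 3.

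Averaged over both treatments the fusion genes had a median log2 fold change of 0.02 between genotypes, 7 above and 3 below 0. Under E2 alone their median was 0.09, and Het-Met libraries were all above WT libraries for 6 of the 10 genes and all below for 1, where 21.1% and 14.7% of all genes did the same. Snap25 was at 2807 and 2739 CPM and at 2536 and 2647 CPM in OVX WT libraries, and at 2949, 2705 and 2574 CPM and at 2751, 3099 and 2740.3 CPM in OVX Het-Met libraries. The genotypes overlapped over both treatments, with a log2 fold change of 0.06 ± 0.06 (SE). Under E2 every Het-Met library was above both WT libraries, at 0.14 ± 0.09 (SE; limma adjusted p = 0.528). Napa, α-SNAP, a partner of NSF, was at 265, 248, 253 and 246 CPM in the 4 OVX WT libraries, and at 283, 261 and 307 CPM and at 253, 279 and 278 CPM in OVX Het-Met libraries. It was the 1 higher gene at the unadjusted limit, at 0.13 ± 0.05 (SE; limma adjusted p = 0.255). Doc2a, a calcium sensor, met that limit under E2 only, with 20.4 and 22.2 CPM in OVX WT and 26.4, 23.9 and 24.7 CPM in OVX Het-Met libraries. Under vehicle it was at 23.5 and 25.0 CPM in OVX WT and at 24.1, 26.4 and 21.7 CPM in OVX Het-Met libraries, and the difference between treatments did not meet the limit.

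The vesicle genes and the active-zone genes, whose median transcript is longer, were then set against each other. Taking each gene relative to its mean over the 10 libraries, the active-zone mean minus the vesicle mean was -0.00 and 0.13 (log2) in vehicle-treated and 0.08 and 0.08 in E2-treated OVX WT libraries. In OVX Het-Met libraries it was -0.22, 0.05 and 0.03 under vehicle and 0.03, -0.06 and -0.13 under E2. Under E2 the WT libraries lay above the Het-Met libraries, under vehicle they overlapped, and the lowest value was that of vehicle-treated OVX Het-Met replicate 1. As group means the difference was 0.06 ± 0.10 under vehicle and 0.08 ± 0.00 under E2 in the WT groups (SD, n = 2 each) and -0.05 ± 0.15 and -0.05 ± 0.08 in the Het-Met groups (SD, n = 3 each).

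As a comparison of fold changes, active-zone minus vesicle was -0.11 for genotype under vehicle, -0.13 under E2 and -0.12 over both treatments, where the active-zone mean was -0.17 and the vesicle mean -0.05. For E2 it was 0.02 in OVX WT and -0.01 in OVX Het-Met mice, with no settled sign, since with single libraries left out it ran from -0.0529 to 0.0851 and from -0.0935 to 0.0429. The pooled spread of this quantity between libraries of a group was 0.107 (SD), about the size of the genotype differences. No test was made of it, since the classes were chosen by name with earlier results known. Without vehicle-treated OVX Het-Met replicate 1 the genotype value was -0.02 under vehicle and -0.08 over both treatments, and under vehicle it was -0.18 without OVX WT replicate 1 and -0.04 without OVX WT replicate 3. Splitting the 45 genes by length alone, at 4361 bases, gave -0.15 for the longer minus the shorter genes over both treatments.

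**Figure D3:**
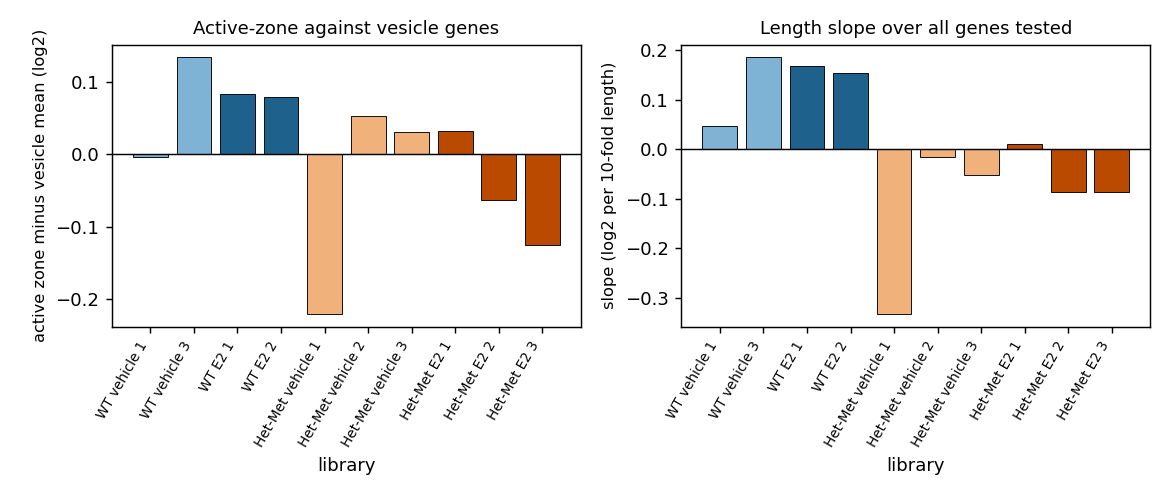
In the left panel each bar is the mean of the 11 active-zone genes minus the mean of the 15 vesicle genes in 1 library (log2, each gene relative to its mean over the libraries), and in the right panel the slope of all genes tested on transcript length in the same library (log2 per 10-fold length), with both axes through 0. Vehicle-treated Het-Met replicate 1 has the lowest bar in both panels, -0.22 and -0.33, and no WT library has a slope below 0.

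Genotype fold changes went down with transcript length both in the 45 genes and in the whole table. Over both treatments, the 8 of the 45 genes with transcripts of 8000 bases or more had a median log2 fold change of -0.22, and all 872 genes of that length had a median of -0.13, with 42.8% of them lower at the unadjusted limit. In the range of 6000 to 8000 bases the medians were -0.19 over 5 of the 45 genes and -0.08 over 1206 genes, of which 22.1% were lower. Among transcripts under 2000 bases, the medians were 0.10 over 2 of the 45 genes and 0.11 over 3624 genes, of which 23.6% were higher. Across genes, which are not independent replicates and which share the same 10 libraries, Spearman's rho between the genotype log2 fold change and transcript length was -0.74 over the 45 genes and -0.52 over 14979 genes.

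**Figure D4:**
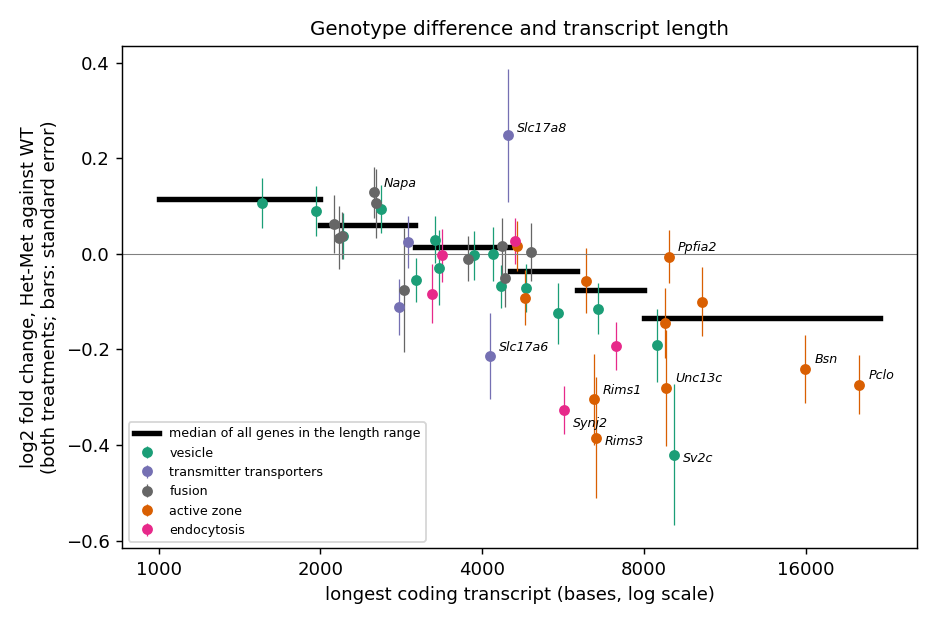
The x axis is the longest coding transcript of a gene (bases, log scale) and the y axis its log2 fold change of Het-Met against WT mice over both treatments, with a point for each of the 45 genes, coloured by class, bars for the standard error and black lines for the median of all genes in each length range. Both the points and the lines go down from left to right, from medians of 0.11 below 2000 bases to -0.13 from 8000 bases. Synj2, Rims1, Rims3 and Sv2c are among the points below the line of their length, as are Pclo, Bsn, Unc13c and Synj1. Unc13a, Ppfia2 and Erc2 lie above theirs.

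When a smooth trend on transcript length was taken out of each library, the active-zone minus vesicle value went from -0.12 to -0.02 over both treatments, from -0.13 to -0.03 under E2 and from -0.11 to -0.0027 under vehicle. The genes at the unadjusted limit over both treatments went from 12 to 6, all lower in Het-Met mice, while the share of all genes went from 16.6% to 9.05%. Of the 12, Synj2, Synj1, Rims1, Rims3 and Slc17a6 were kept, and Bsn, Pclo, Unc13c, Rab3c, Sv2c, Dnajc5 and Napa were not. The limit did not part the genes by size, since Sv2c, not kept, was at -0.29 (unadjusted p = 0.0513) and Synj1, kept, went from -0.19 to -0.11. The GABA and glycine transporter gene Slc32a1 was added at -0.15 ± 0.06 (SE; limma adjusted p = 0.43). Synj2 was then at -0.27 ± 0.05 (SE; adjusted p = 0.069), Rims3 at -0.31 ± 0.12 and Rims1 at -0.23 ± 0.09, while Pclo was at -0.05 and Bsn at -0.04. How the RNA or the libraries came to differ by length was not tested.

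The transporters fill vesicles with glutamate or, in the case of Slc32a1, with GABA and glycine. Slc17a7, which encodes VGLUT1 and was the transporter of highest level, was at 1591 and 1598 CPM and at 1458 and 1504 CPM in OVX WT libraries, and at 1448, 1589 and 1684 CPM and at 1547, 1520.4 and 1603 CPM in OVX Het-Met libraries. The groups overlapped over both treatments, with a log2 fold change of 0.02 ± 0.05 (SE). Slc32a1, which encodes the vesicular GABA transporter, was at 67.0 and 70.7 CPM and at 74.5 and 81.1 CPM in OVX WT libraries, against 68.1, 71.9 and 62.6 CPM and 70.8, 62.7 and 70.6 CPM in OVX Het-Met libraries. Under E2 its Het-Met libraries were all below the WT libraries, at -0.19 ± 0.08 (SE; limma adjusted p = 0.402). Slc17a8, at 3.47 and 3.87 CPM in OVX WT and 5.22, 4.44 and 5.84 CPM in OVX Het-Met libraries under vehicle, was higher in Het-Met mice at the unadjusted limit, by 0.44 ± 0.20 (SE; adjusted p = 0.451). Under E2 it was at 4.17 and 4.47 CPM and at 5.82, 4.79 and 3.27 CPM, and the groups overlapped.

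Slc17a6 (chr7:51622006-51671119, plus strand) encodes VGLUT2, the glutamate transporter typical of thalamic and other subcortical terminals, and it is expressed at a low level in the hippocampus. Its level was 28.4 and 32.5 CPM in vehicle-treated and 24.7 and 22.3 CPM in E2-treated OVX WT libraries. In OVX Het-Met mice it was 21.4, 17.8 and 15.8 CPM under vehicle and 25.6, 31.4 and 29.9 CPM under E2. E2-treated libraries were all lower than vehicle-treated ones in WT and all higher in Het-Met mice. The log2 fold change of E2 against vehicle was -0.37 ± 0.14 in OVX WT and 0.65 ± 0.11 in OVX Het-Met mice (SE; limma adjusted p of 1 and 0.212). Under vehicle it was lower in Het-Met than in WT mice, at -0.72 ± 0.13 (adjusted p = 0.139). Under E2 the order was the reverse, with all 3 Het-Met libraries above both WT libraries, at 0.29 ± 0.13 (adjusted p = 0.404).

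The difference of the 2 E2 effects of Slc17a6, the interaction, was 1.02 ± 0.18 on the log2 scale, with a limma adjusted p of 0.0522, just over the threshold. The adjusted p was under 0.05 in 2 of the 11 other settings and reached 0.239 among the rest. Those 2 were edgeR's quasi-likelihood test (0.0277) and DESeq2 (0.000182), both on the recovered reads. With single libraries left out the difference was between 0.92 and 1.13 and its adjusted p between 0.0111 and 0.31. This gene is also in the list of thalamus and neighbouring tissue. The other 6 markers of that list, with Calb2 the most abundant and none at 0 in all libraries, summed to 131 and 152 CPM in vehicle-treated and 146 and 152 CPM in E2-treated OVX WT libraries. They summed to 165, 165 and 138 CPM in vehicle-treated and 152, 168 and 190 CPM in E2-treated OVX Het-Met libraries. At the unadjusted limit 0 of the 6 met the interaction and 0 differed after E2 in OVX WT mice. After E2 in OVX Het-Met mice 1 was higher, Tcf7l2, at a log2 fold change of 0.52. Its interaction was 0.45 (limma unadjusted p = 0.0604). For genotype under E2, 2 of the 6, Tcf7l2 and Lef1, were higher in Het-Met mice and 0 lower, the direction of Slc17a6. Under vehicle 1 of the 6 was higher and 0 lower, where Slc17a6 was lower. The part of such tissue in the level of Slc17a6 was not tested.

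Cplx3 (chr9:57599992-57606281, minus strand) encodes complexin 3, a complexin of retina and of few forebrain neurons. It was at 15.3 and 12.3 CPM in vehicle-treated and at 8.88 and 9.71 CPM in E2-treated OVX WT libraries, and at 8.35, 10.5 and 7.42 CPM in vehicle-treated and at 13.0, 10.3 and 16.9 CPM in E2-treated OVX Het-Met libraries. The groups were apart in WT mice and overlapped at a single pair, 10.5 and 10.3 CPM, in Het-Met mice. E2 effects were -0.54 ± 0.20 and 0.57 ± 0.16 (SE), and the interaction was 1.11 ± 0.26 with a limma adjusted p of 0.148. With single libraries left out the adjusted p was between 0.105 and 0.72. Among the 11 other settings it was under 0.05 in 1, DESeq2 (0.0152), and reached 0.476 among the rest. The more abundant complexins differed little, Cplx2, at a mean of 1986 CPM, having a log2 fold change of 0.00 ± 0.06 (SE) for genotype.

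Doc2b encodes a calcium-binding protein of spontaneous release, and its pattern was the opposite. Its level was 101 and 102 CPM in vehicle-treated and 113 and 117 CPM in E2-treated OVX WT libraries, and 113, 118 and 135 CPM in vehicle-treated and 90.8, 101 and 102 CPM in E2-treated OVX Het-Met libraries. Within each genotype the treatments did not overlap. The E2 effect in OVX Het-Met mice was -0.32 ± 0.07 (SE; limma adjusted p = 0.597) and the interaction -0.49 ± 0.12 (adjusted p = 0.148).

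Fibcd1, a marker of CA1, moved in the same directions as Doc2b. It was at 174 and 166 CPM in vehicle-treated and 202 and 213 CPM in E2-treated OVX WT libraries, and at 204, 224 and 204 CPM in vehicle-treated and 165, 148 and 164 CPM in E2-treated OVX Het-Met libraries. Its interaction was -0.69 on the log2 scale. It was the most abundant of the 3 genes in the CA1 list, of which none was at 0 in all libraries, and the other 2, Wfs1 and Pou3f1, had interactions of 0.28 and -0.06 that missed the unadjusted limit. Summed, the list was at 417 and 374 CPM under vehicle and 404 and 419 CPM under E2 in OVX WT libraries, and at 387, 424 and 454 CPM under vehicle and 399, 349.9 and 397 CPM under E2 in OVX Het-Met libraries, so that its treatments overlapped in both genotypes. The part of CA1 tissue in the level of Doc2b was not tested.

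Syn1, synapsin I, which ties vesicles to actin, was at 1147 and 1124 CPM in vehicle-treated and at 1067 and 1082 CPM in E2-treated OVX WT libraries. In OVX Het-Met libraries it was at 1062, 1048 and 1119 CPM and at 1166, 1133 and 1246 CPM. The treatments again did not overlap within either genotype, yet the change was small, the interaction being 0.21 ± 0.10 (SE; limma adjusted p = 0.894). Sv2c, whose levels stand above, was higher after E2 in OVX Het-Met mice by 0.55 ± 0.19 (SE; adjusted p = 0.755), with no overlap.

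Slc17a6, Cplx3, Doc2b and Syn1 were the 4 genes at the unadjusted limit for the interaction, 8.89% of the 45 beside 5.42% of all genes. The E2 effect was higher in Het-Met mice for 3 of them and lower for Doc2b, beside 2.8% and 2.62% of all genes. For E2 in OVX WT mice the 2 genes at that limit were Slc17a6 and Cplx3, both lower, beside 2.37% higher and 1.66% lower over all genes. For E2 in OVX Het-Met mice Slc17a6, Cplx3, Sv2c and Syn1 were higher and Doc2b was lower, beside 2.82% and 2.63%. The treatments did not overlap for 8 higher and 10 lower genes in OVX WT mice (15.6% and 16.2% of all genes) and for 4 higher and 1 lower gene in OVX Het-Met mice (5.15% and 5.11%). For E2 in OVX Het-Met mice Syn1 was lost in 6 of the 10 fits that left out a library and in 5 of the 11 other settings (no filter, median-of-ratios scaling, the replicate block, only the compared libraries, and edgeR), and Sv2c was lost along with it without vehicle-treated replicate 1 or E2-treated replicate 3 of the OVX Het-Met mice. For E2 in OVX WT mice Cplx3 was lost without vehicle-treated or E2-treated OVX WT replicate 1, and Slc17a6 without vehicle-treated replicate 3 or E2-treated replicate 2. Slc17a6, Cplx3 and Doc2b stayed at the unadjusted limit for the interaction in every alternative run. Syn1 was lost from it in 8 of the 10 fits that left out a library (all but those without vehicle-treated replicate 3 or E2-treated replicate 2 of the OVX Het-Met mice) and in 3 of the 11 other settings, namely no filter, median-of-ratios scaling and the replicate block. Choroid plexus markers moved the other way from Slc17a6 and Cplx3. All 8 were higher after E2 in OVX WT mice, with a median log2 fold change of 1.99, and lower after E2 in OVX Het-Met mice, with a median of -1.28, at the unadjusted limit. The part of these tissues in the levels of the 4 genes was not tested.

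**Figure D5:**
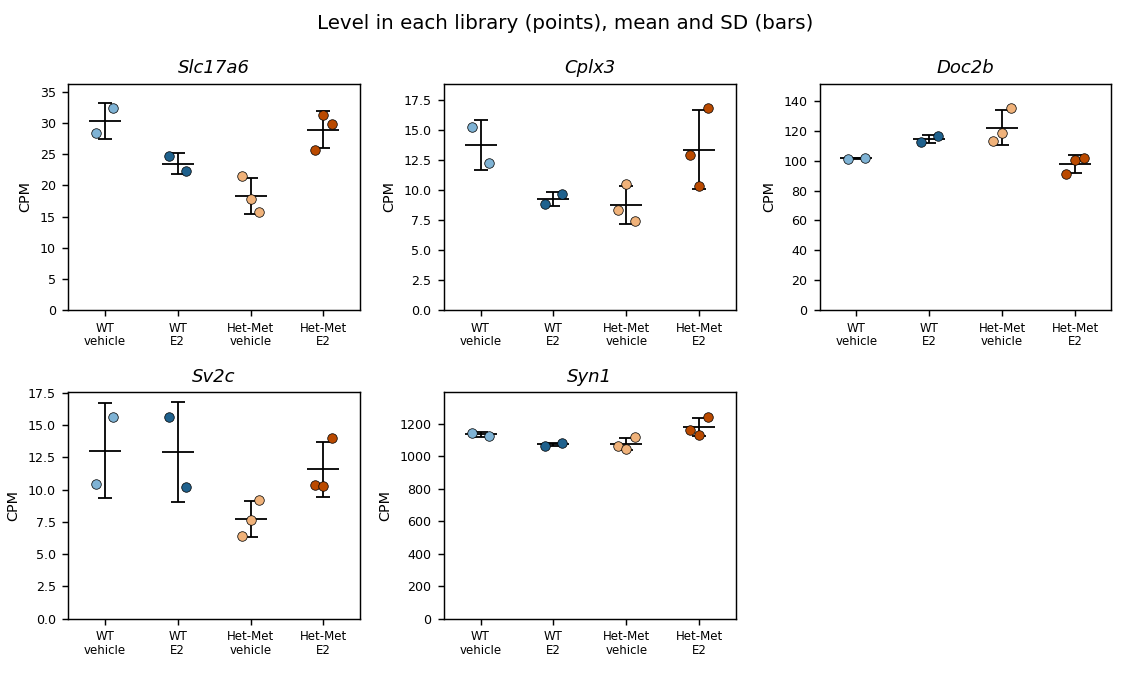
Each panel plots the CPM of 1 gene on an axis from 0, with a point for each library and bars for the group mean and SD (n = 2 for WT groups, n = 3 for Het-Met groups). Slc17a6, Cplx3 and Syn1 are lower after E2 in WT mice and higher after E2 in Het-Met mice (with 1 overlapping pair for Cplx3), Doc2b is the reverse, and the WT points of Sv2c spread as widely as its group differences.

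Sequence before the start of transcription is shown for the interaction genes, because E2 acts on genes through estrogen response elements or through the CREB pathway, whose site is the cyclic AMP response element. RefSeq (GRCm38.p6) gave windows for 38 of the 45 genes, and Doc2b was not among them. The sequences run 5′ to 3′ on the gene's strand, with capitals marking TGACGTCA, the cyclic AMP response element, or its first 5 letters TGACG alone on either strand. Slc17a6 lies at chr7:51621580-51621829 (plus strand), Cplx3 at chr9:57606282-57606531 (minus strand) and Syn1 at chrX:20921005-20921168 (minus strand, without the 86 bases next to the start that GENCODE places in the gene).
Slc17a6: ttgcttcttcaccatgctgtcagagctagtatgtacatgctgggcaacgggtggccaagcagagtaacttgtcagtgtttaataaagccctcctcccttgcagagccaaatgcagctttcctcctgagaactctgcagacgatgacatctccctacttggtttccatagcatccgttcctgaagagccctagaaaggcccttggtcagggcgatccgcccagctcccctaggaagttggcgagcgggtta
Cplx3: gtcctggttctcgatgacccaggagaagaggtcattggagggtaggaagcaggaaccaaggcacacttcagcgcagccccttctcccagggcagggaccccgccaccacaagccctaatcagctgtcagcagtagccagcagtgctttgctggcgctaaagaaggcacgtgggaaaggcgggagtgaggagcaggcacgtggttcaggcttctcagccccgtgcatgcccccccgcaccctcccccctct
Syn1: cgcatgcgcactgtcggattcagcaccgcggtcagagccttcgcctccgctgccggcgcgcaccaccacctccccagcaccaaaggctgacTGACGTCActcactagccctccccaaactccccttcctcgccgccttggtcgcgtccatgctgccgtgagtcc

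Syn1 holds the full element, and these windows of Slc17a6 and Cplx3 hold neither form. A second RefSeq window of Slc17a6, inside the gene model, holds 1 match to the first 5 letters. In the 250 bases before the start, both strands searched, the full element was in 2 of the 38 genes with a window (Syn1 and Sh3gl2) and in 1.77% of 27025 genes. The 5 letters, which the full element contains, were in 11 of the 38 (28.9%) and in 19.8% of all. The estrogen response element, GGTCA and TGACC with any 3 letters between them, was in 0 of the 38 and in 0.0666% of all. A match is a description of letters and not a site of binding.

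A wider list of 82 other presynaptic genes in the table, of which 80 were tested, gave the setting. In it 0 genes were called in any comparison. For genotype over both treatments 21 of 80 (26.2%) met the unadjusted limit, beside 16.6% of all genes. Of these 10 were higher and 11 lower, beside 9.33% and 7.27%, and the median log2 fold change of the list was 0.01. The other shares lay nearer to those of all genes, with 13 of 80 (16.2%) for genotype under vehicle beside 10.7%, 10 (12.5%) under E2 beside 11.7%, 3 (3.75%) for the interaction beside 5.42%, and for E2 5 (6.25%) in OVX Het-Met mice beside 5.45% and 1 (1.25%) in OVX WT mice beside 4.04%. Among the genes with the smallest p for genotype over both treatments, 5 are described here, 3 lower genes with transcripts from 6080 to 14921 bases and 2 higher genes with transcripts of 836 and 1851 bases.

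Cacna1e, the pore subunit of R-type calcium channels, was at 504, 450.1, 478 and 461 CPM in the 4 OVX WT libraries, and at 332, 409.5 and 420.5 CPM under vehicle and 388, 388 and 414 CPM under E2 in OVX Het-Met libraries. All Het-Met libraries were below all WT libraries, with a log2 fold change of -0.27 ± 0.06 (SE; limma adjusted p = 0.12). Itsn2, an endocytosis scaffold, was at 77.0, 74.9, 73.9 and 74.4 CPM in the OVX WT libraries, vehicle first, and at 54.2, 64.8 and 65.3 CPM under vehicle and 70.9, 63.1 and 56.3 CPM under E2 in OVX Het-Met libraries, and was separated in the same way.

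Syt2, a fast calcium sensor of low level here, was at 8.14 and 13.6 CPM and at 10.99 and 11.05 CPM in OVX WT libraries, and at 6.499, 8.73 and 7.51 CPM and at 9.25, 7.93 and 7.02 CPM in OVX Het-Met libraries. Its log2 fold change was -0.45 ± 0.13 (SE), with overlap at the lowest WT library. Ap2s1, the small subunit of the clathrin adaptor AP-2, was at 124 and 104 CPM and at 110.3 and 106 CPM in OVX WT libraries, and at 147, 141 and 123 CPM and at 121, 119 and 126 CPM in OVX Het-Met libraries. Sh3glb2, an endophilin B, was at 227 and 185 CPM and at 202 and 169 CPM, against 232, 222 and 245 CPM and 229.6, 207 and 230.2 CPM. For both the genotypes overlapped at the highest WT library, vehicle-treated replicate 1. Their log2 fold changes were 0.22 ± 0.06 and 0.22 ± 0.07 (SE), and the limma adjusted p of Itsn2, Syt2, Ap2s1 and Sh3glb2 lay between 0.126 and 0.146.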

How the data were processed

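RNA of the vHpc was sequenced as stranded libraries with 75-bp single-end reads. The authors aligned the reads to mm10 with TopHat2 (per the methods and the submitters' processing notes, which also name DESeq and DESeq2) and deposited CPM per gene symbol, which sum to 1000000 in each library. The values were whole multiples of the value of 1 read (100% within a tolerance of 0.01), so whole reads were recovered. The counting program's settings and version are not given in the sources used here.

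limma 3.58.1 in R 4.3.3 fitted log2(CPM + 0.5) for 15081 genes (mean 0.5 CPM or more) as means of the 4 groups over 10 libraries, with trended moderation (8.90 prior and 6 residual degrees of freedom). Fold changes are on that scale and understate the changes of low genes. Tests were two-sided and adjusted by Benjamini-Hochberg over all genes tested, with the study's limits of 0.05 and 1.3-fold. The code was tested on simulated data. The groups' contrasts share libraries, and p-values measure the spread between pools.

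Positions and transcript lengths came from GENCODE vM21 (23376 symbols matched directly, 678 by an older symbol, 367 not). Length is that of the longest coding transcript. The alternatives were other pseudocounts, filters and scalings, a length trend removed (loess span 0.3), a replicate block, only the compared libraries, edgeR 4.0.16 and DESeq2 1.42.0 on recovered reads, and each library left out. The members, classes, lists and tests were chosen with earlier results of these data known. Values in every library are given for genes at an unadjusted p under 0.05 in any comparison, for the gene of highest level and of largest genotype difference in each class, and for up to 6 other presynaptic genes, of which 1 is not reported here. Ppfia2, Ppfia3, Erc1, Syp and Cplx2 are named for their values. Tables and figures used python 3.11.15, pandas 2.3.3 and matplotlib 3.10.9.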

Additional observations from a re-analysis of the deposited data

Results flagged for a closer look

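For 4 genes the effect of E2 differed between the genotypes at an unadjusted p under 0.05 of the interaction term in limma. The difference, the E2 effect in OVX Het-Met mice minus that in OVX WT mice, was 1.02 for Slc17a6, 1.11 for Cplx3, 0.21 for Syn1 and -0.49 for Doc2b, all on the log2 scale. Of all genes tested, 5.42% met the same limit. For Slc17a6, Syn1 and Doc2b the libraries of both treatments were apart within each genotype and moved in opposite directions, and for Cplx3 this was so apart from 1 overlapping pair in OVX Het-Met mice. No group had enough libraries to search for a single library far from the rest.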

How the results depend on the processing

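None of the 44 fold changes at the unadjusted limit changed sign under any alternative. They were picked at that limit in the same libraries, so a kept sign is no independent check. Genes called numbered 0 except with DESeq2, which called 1 for E2 in OVX Het-Met mice (Slc17a6), 2 for genotype under vehicle (Slc17a6 and Synj2) and 2 for the interaction (Slc17a6 and Cplx3), and with edgeR, which called 1 for the interaction (Slc17a6). Of all genes DESeq2 called 0.0398%, 0.225% and 0.245% in these comparisons and edgeR 0.0796%. With single libraries left out, calls ranged from 0 to 1 for genotype over both treatments (Rims1, without vehicle-treated OVX Het-Met replicate 2, where 0.57% of all genes were called in place of 0.0265%) and from 0 to 1 for the interaction (Slc17a6, without E2-treated OVX Het-Met replicate 1, where 0.471% were called in place of 0.0729%). Counts at the unadjusted limit then ranged from 1 to 3 for E2 in OVX WT mice, 3 to 7 for E2 in OVX Het-Met mice, 7 to 14 for genotype under vehicle, 4 to 12 under E2, 5 to 17 over both treatments and 3 to 7 for the interaction, while the share of all genes ranged from 2.09% to 8.56%, 4.12% to 6.61%, 6.83% to 12.4%, 5.43% to 14%, 10.7% to 19.8% and 3.67% to 8.48%. Counts moved by over 1.5 times for E2 in OVX WT mice without WT vehicle replicate 1 or either WT E2 library. For E2 in OVX Het-Met mice they did so without Het-Met vehicle replicate 1 or Het-Met E2 replicate 3 (3 each). For genotype under E2 they did so without either WT E2 library or Het-Met E2 replicates 2 or 3 (6 for each of these Het-Met libraries). Genotype over both treatments moved as much without WT vehicle replicate 3 or WT E2 replicate 1, and the interaction without Het-Met vehicle replicate 3 (7). Without the length trend these counts were 6 for genotype under E2 and 6 over both treatments (8.9% and 9.05% of all genes), and the active-zone minus vesicle value under vehicle was -0.0027. With only the compared libraries in the fit, the count for genotype under E2 was 18 in place of 11 (40% of the 45), while the share of all genes went from 11.7% to 17.1%. The adjusted p of Synj2 for genotype over both treatments was under 0.05 in 8 of 11 other settings, the exceptions being no filter (0.0663), no length trend (0.069) and the replicate block (0.0897).

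Replicate numbers gave no sign of pairing the libraries: 12 same-numbered pairs had correlations of deviations from the group means from -0.172 to 0.0826, none over 0.1. In the WT groups, with 2 libraries each, the deviations mirror each other, so correlations with those libraries cannot settle whether libraries were paired. With the replicate block 0 of the 45 genes was called, and the counts at the unadjusted limit were 3, 4, 10, 10, 10 and 3 in the order of the report, beside 3.59%, 4.99%, 9.65%, 10.5%, 16.2% and 4.48% of all genes. Depth did not limit most of the 45 genes, of which 7 had a mean under 50 CPM, and the number of libraries, 2 or 3 a group, sets the precision.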
